A study of Sus scrofa with 6 samples.

Results

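The VEGF and angiopoietin ligands and receptors were followed in longissimus dorsi, a skeletal muscle of the back, from UCP1 KI pigs and WT pigs. They were taken as a list of 10 genes by pig Ensembl symbol, namely the ligands *VEGFA*, *VEGFB*, *VEGFC*, *ANGPT1* and *ANGPT4* and the receptors *FLT1*, *KDR*, *FLT4*, *TEK* and *TIE1*. Counts were found for 9 of the 10 genes among the 30476 identifiers of the count table, and all 9 passed the filter on low counts that kept 13402 genes for testing. *VEGFB* (ENSSSCG00000054506) was not analysed here. No nucleotide or protein sequences of these genes were used here.

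RNA was sequenced from 3 UCP1 KI pigs, which carry the thermogenic uncoupling protein gene *UCP1* knocked in for expression in adipocytes, and from 3 WT pigs, with 1 library per pig and every pig aged 6 months. Muscle fibres are therefore not the cells in which the transgene was designed to act. The sex of the pigs, and whether they were littermates, is not given in the sources used here. Genotype was not checked against *UCP1* counts. The gene name table holds no identifier with that symbol, and the study reported no *UCP1* mRNA in the muscle of either group.

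Total counts per pig lay between 30220951 and 35066624. WT replicate 2 stood apart, with 56.5% of its counts in its 20 most abundant genes, against 39.0% to 44.8% in the other pigs, and with the lowest TMM factor, 0.781. Levels below are in CPM, counts scaled to a common library total, after TMM correction of those totals for such dominant genes, and a positive log2 fold change means a higher level in UCP1 KI pigs. Muscle fibre genes were abundant in every pig, with a summed 56633 to 98320 CPM over *ACTA1*, *CKM*, *TNNT3* and *DES*, the 4 of 11 listed fibre markers that had counts. All 9 endothelial markers with counts, of 13 listed, were detected, with summed levels of 499 to 944 CPM in the UCP1 KI pigs and 511 to 927 CPM in the WT pigs. In bulk muscle, fewer cells of a type and less RNA per cell cannot be told apart.

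Vascular endothelial growth factors are secreted proteins that bind receptor tyrosine kinases on endothelial cells. VEGFA acts on blood vessels through KDR, with FLT1 as a receptor that binds it tightly but signals weakly, whereas VEGFC acts through FLT4 and is best known for the growth of lymphatic vessels. The angiopoietins bind TEK, the receptor also called TIE2, which keeps vessels quiescent and sealed, and TIE1 is its partner receptor without a ligand of its own among the angiopoietins. In skeletal muscle the fibres are a main source of VEGFA, which maintains the capillaries around them.

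Among the 9 genes, *TEK* was higher in the UCP1 KI pigs and *VEGFC*, *FLT4* and *ANGPT4* were lower. A gene was counted when it passed 2 limits, an unadjusted p under 0.05 in the quasi-likelihood test of edgeR and an absolute log2 fold change above 0.5. Over all genes tested, 3.84% were past both limits as higher and 4.34% as lower, so 4 of 9 stands beside 8.19%, or 8.21% on p alone. The groups did not overlap for the same 4 genes, 1 higher and 3 lower, beside 15.3% of all genes tested (7.59% higher and 7.69% lower). The median log2 fold change of the 9 genes was -0.29. None of the 4 had an adjusted p under 0.05 from edgeR, and neither did any of the genes tested (0%), whereas 1100 had an unadjusted p under 0.05. *VEGFC*, *FLT4* and *ANGPT4* were singled out by the study in these same pigs as lower, so their direction here is not independent evidence. *TEK* was not among them.

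**Figure D1:**
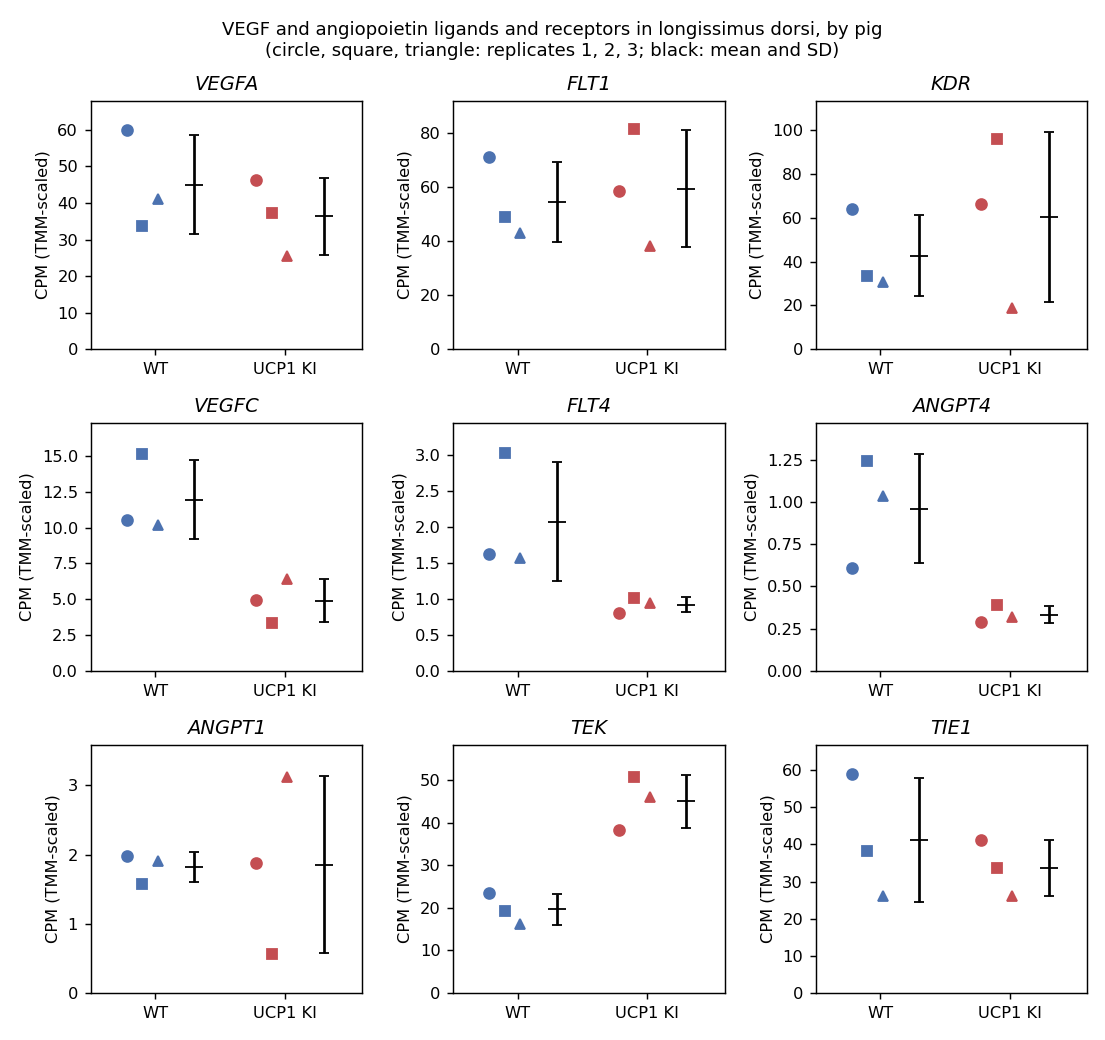
Level of each of the 9 genes in each pig, in TMM-scaled CPM on axes that start at 0, with WT pigs in blue, UCP1 KI pigs in red and the mean and SD (n = 3) in black. The 3 UCP1 KI pigs sit below all WT pigs for *VEGFC*, *FLT4* and *ANGPT4*, above all WT pigs for *TEK*, and overlap with the WT pigs for the other genes.

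*VEGFA* (ENSSSCG00000001695, chromosome 7, 38746393 to 38762282), the main ligand for blood vessels, was at 46.3, 37.3 and 25.4 CPM in UCP1 KI replicates 1 to 3 and at 60.1, 33.8 and 41.1 CPM in WT replicates 1 to 3. The highest value came from WT replicate 1 and the lowest from UCP1 KI replicate 3, and the groups overlapped. Means were 36.3 ± 10.5 CPM in the UCP1 KI pigs and 45.0 ± 13.6 CPM in the WT pigs (SD, n = 3 each). The log2 fold change of -0.31 (standard error 0.32, adjusted p = 0.810 from edgeR) was smaller than the spread between pigs, and leaving out single pigs moved it from -0.52 to -0.04.

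*VEGFC* (ENSSSCG00000015770, chromosome 15, 39037764 to 39136234), the lymphatic ligand, was at 4.95, 3.37 and 6.41 CPM in the UCP1 KI pigs and at 10.5, 15.2 and 10.2 CPM in the WT pigs. The groups were apart, and the gap between the nearest pigs of the groups, 6.41 and 10.2 CPM, was larger than the whole spread of the UCP1 KI pigs. The WT mean was 2.44-fold the UCP1 KI mean, a log2 fold change of -1.28 (standard error 0.33). In edgeR's test the p was 0.00468 before and 0.583 after adjustment, and it ranked 105 among all genes tested by p. *VEGFC* passed whichever pig was left out, at -1.52 to -1.08.

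For *ANGPT1* (ENSSSCG00000006035, chromosome 4, 29925203 to 30233434), the activating ligand of TEK, levels were 1.88, 0.561 and 3.13 CPM in the UCP1 KI pigs and 1.98, 1.57 and 1.90 CPM in the WT pigs. The WT pigs lay close together, while the UCP1 KI pigs differed among themselves by 5.57-fold and spanned the WT values. This left a log2 fold change of 0.03 (standard error 0.59, edgeR adjusted p = 0.991). Its sign rested on single pigs, and it was -0.57 without UCP1 KI replicate 3, -0.07 without WT replicate 2 and 0.44 at its highest.

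*ANGPT4* (ENSSSCG00000007198, chromosome 17, 34345926 to 34394977), a further TEK ligand, had the fewest counts of the 9 genes, 9, 14 and 12 counts in the UCP1 KI pigs and 22, 34 and 31 in the WT pigs. These were 0.291, 0.393 and 0.318 CPM against 0.606, 1.24 and 1.03 CPM, and the groups did not overlap. On counting error alone, the exact 95% Poisson interval of 14 counts, 7.65 to 23.5, overlapped that of 22 counts, 13.8 to 33.3. The log2 fold change from edgeR was -1.51 (standard error 0.52), with an unadjusted p of 0.0202 and an adjusted p of 0.583. The call was lost with 4 of the 6 pigs left out one at a time, at unadjusted p values up to 0.0837 in edgeR without WT replicate 2, and with library size only in place of TMM. The RefSeq span of *ANGPT4* holds a long non-coding RNA gene, LOC110257400, over 4469 bases, and whether the counting used strand is not given in the sources used here, so reads of the pair may not be separated.

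The blood vessel receptors *KDR* and *FLT1* varied widely between UCP1 KI pigs. *KDR* (ENSSSCG00000008844, chromosome 8, 41809116 to 41856379), the main signalling receptor for VEGFA, was at 66.3, 95.9 and 19.0 CPM in the UCP1 KI pigs and at 64.1, 33.6 and 30.7 CPM in the WT pigs. Both the highest and the lowest of the 6 values belonged to UCP1 KI pigs, which spanned a 5.05-fold range. The log2 fold change of 0.50 (standard error 0.56, adjusted p = 0.825 from edgeR) was -0.00318 without UCP1 KI replicate 2 and 0.91 without UCP1 KI replicate 3.

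*FLT1* (ENSSSCG00000009320, chromosome 11, 5620698 to 5797095) was at 58.7, 81.6 and 38.2 CPM in the UCP1 KI pigs and at 71.3, 49.2 and 43.0 CPM in the WT pigs. As for *KDR*, UCP1 KI replicates 2 and 3 were the highest and the lowest pig. A log2 fold change of 0.13 (standard error 0.34, edgeR adjusted p = 0.929) turned to -0.18 when UCP1 KI replicate 2 was left out and to -0.02 when WT replicate 3 was. The receptors were not in proportion, since UCP1 KI replicate 3 held 49.8 *KDR* counts per 100 *FLT1* counts, against 113 and 118 in the other UCP1 KI pigs and 68.4 to 89.8 in the WT pigs. Such a ratio depends on the lengths of both genes and is read here between pigs alone.

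*FLT4* (ENSSSCG00000014007, chromosome 2, 78076008 to 78115137), the receptor for VEGFC and a gene of lymphatic endothelium in adult tissue, had 25, 36 and 36 counts in the UCP1 KI pigs and 59, 83 and 47 in the WT pigs. This corresponded to 0.809, 1.01 and 0.954 CPM against 1.63, 3.03 and 1.57 CPM. The UCP1 KI pigs were close together and below each WT pig, and WT replicate 2 was well above the other WT pigs. On counting error alone, the exact 95% Poisson interval of 36 counts, 25.2 to 49.8, overlapped that of 47 counts, 34.5 to 62.5. The WT mean was 2.25-fold the UCP1 KI mean, and edgeR gave a log2 fold change of -1.16 (standard error 0.42), with an unadjusted p of 0.0267 and an adjusted p of 0.583. Leaving out WT replicate 2 reduced it to -0.79 (unadjusted p = 0.128 from edgeR), and the call was also lost without UCP1 KI replicate 1, 2 or 3 and with library size only.

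*TEK* (ENSSSCG00000005122, chromosome 1, 195938177 to 196052294), the angiopoietin receptor, was at 38.3, 50.6 and 46.1 CPM in the UCP1 KI pigs and at 23.4, 19.1 and 16.3 CPM in the WT pigs. The lowest UCP1 KI pig was above the highest WT pig by more than the range within either group. Mean levels, 45.0 ± 6.24 CPM in the UCP1 KI pigs and 19.6 ± 3.61 CPM in the WT pigs (SD, n = 3 each), differed 2.30-fold. The log2 fold change was 1.20 (standard error 0.24) with an unadjusted p of 0.00123 and an adjusted p of 0.403 in edgeR, and 2.91% of all genes tested had a larger one. *TEK* was past both limits in every one of the 6 fits that left out a pig, at 1.08 to 1.34.

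DESeq2 on the same genes gave *TEK* an adjusted p of 0.00408, where 0.95% of genes had an adjusted p under 0.05, and 0.0118 on all genes with any count. *VEGFC* had 0.0546 and 0.0822 in these runs of DESeq2, and *ANGPT4* and *FLT4* had 0.330 and 0.340 in the former. The RefSeq span of *TEK* overlaps that of another protein-coding gene, LOC102166359, by 384 bases. For *TEK*, *VEGFC*, *FLT4* and *ANGPT4* alike, the two-sided exact permutation test on log2(CPM + 1) gave p = 0.1, which is the lowest value possible with these group sizes.

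*TIE1* (ENSSSCG00000003950, chromosome 6, 167919662 to 167947253), the partner receptor of TEK, was at 41.3, 33.6 and 26.0 CPM in the UCP1 KI pigs and at 59.1, 38.2 and 26.1 CPM in the WT pigs. The groups overlapped, with WT replicate 1 the highest, and the log2 fold change of -0.29 (standard error 0.34, adjusted p = 0.832 from edgeR) was 0.06 without that pig. Per 100 *TIE1* counts, *TEK* had 92.8, 151 and 177 counts in the UCP1 KI pigs and 39.6, 50.1 and 62.3 counts in the WT pigs. This ratio, which does not depend on library scaling, separated the groups fully. Per 100 *KDR* counts, *TEK* had 57.8, 52.8 and 242 counts in the UCP1 KI pigs and 36.6, 56.9 and 53.0 counts in the WT pigs, with overlap, the high value being that of the UCP1 KI pig with the lowest *KDR* level.

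**Figure D2:**
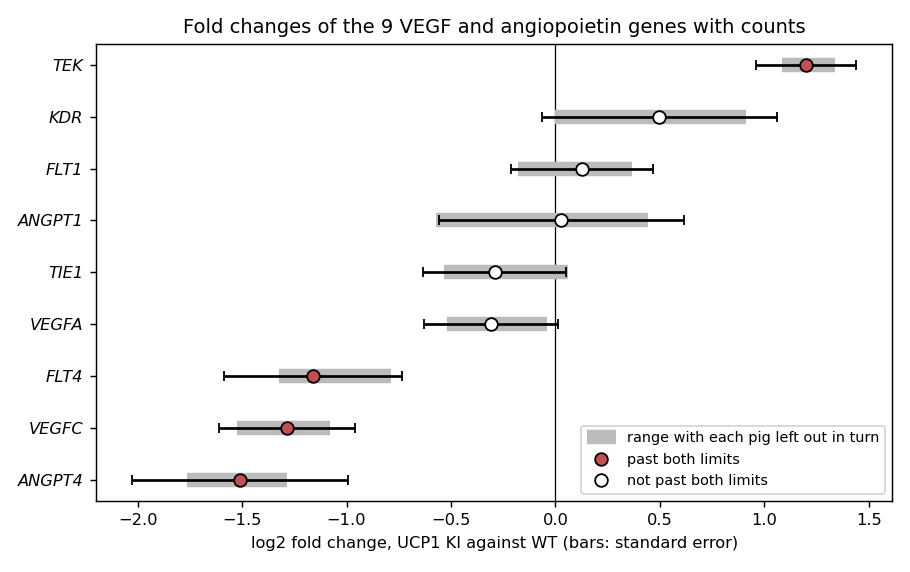
Log2 fold change of each of the 9 genes (x axis) with its standard error, filled in red where past both limits, over a grey band for the range with each pig left out in turn. *TEK* at 1.20 and *VEGFC* at -1.28 have narrow bands away from 0, and the bands of *KDR*, *FLT1*, *ANGPT1* and *TIE1* reach or cross 0.

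The blood vessel genes *KDR*, *FLT1* and *TEK* were then set against the lymphatic genes *VEGFC* and *FLT4*. Mean log2(CPM + 1) of the lymphatic pair was 1.71, 1.57 and 1.93 in the UCP1 KI pigs and 2.46, 3.01 and 2.42 in the WT pigs, without overlap. Mean log2(CPM + 1) of the blood vessel genes was 5.76, 6.22 and 5.06 in the UCP1 KI pigs and 5.60, 5.03 and 4.85 in the WT pigs, with overlap. Of these 3 genes *TEK* alone was past both limits.

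Blood vessel minus lymphatic level was 3.94 ± 0.766 (SD, n = 3) in the UCP1 KI pigs and 2.53 ± 0.569 (SD, n = 3) in the WT pigs on the log2 scale. The difference of 1.41 ranged from 1.05 to 1.81 when single pigs were left out, and the groups still overlapped, since UCP1 KI replicate 3 was at 3.13 and WT replicate 1 at 3.14. Between the receptors alone, log2(CPM + 1) of *FLT4* minus that of *KDR* was -5.22, -5.59 and -3.36 in the UCP1 KI pigs and -4.63, -3.10 and -3.62 in the WT pigs. The low *KDR* level of UCP1 KI replicate 3 placed this pig among the WT pigs, and the group difference of -0.94 was -1.61 without it and -0.49 without UCP1 KI replicate 2. No test was made on these scores.

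For the ligands, *VEGFC* had 10.7, 9.02 and 25.2 counts per 100 *VEGFA* counts in the UCP1 KI pigs and 17.5, 44.9 and 24.7 in the WT pigs, with overlap. UCP1 KI replicate 3 combined the lowest *VEGFA* level with the highest *VEGFC* level of its group.

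Endothelial markers were then used as a yardstick for the receptors. None of the 9 tested markers was past both limits, and their median log2 fold change was 0.04, beside -0.02 over all genes tested. That median changed sign with the pigs used, from -0.20 without WT replicate 3 to 0.25 without UCP1 KI replicate 3. *PECAM1*, an adhesion protein of endothelial junctions, averaged 233 ± 62.3 CPM in the UCP1 KI pigs and 231 ± 60.3 CPM in the WT pigs (SD, n = 3 each). *CDH5*, the cadherin of these junctions, averaged 68.3 ± 21.2 CPM and 66.4 ± 28.6 CPM (SD, n = 3 each). The markers farthest from 0 were *ROBO4*, a guidance receptor of endothelium, at a log2 fold change of -0.53 (23.2 against 33.6 CPM on average), which passed as lower without WT replicate 3, and *ENG*, a TGF-beta co-receptor, at 0.44 (241 against 178 CPM).

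Relative to the mean log2(CPM + 1) of these markers, *TEK* was at -0.80, -0.37 and 0.19 in the UCP1 KI pigs and at -1.59, -1.65 and -1.22 in the WT pigs. The group difference of *TEK* against the endothelial markers was 1.16, beside its log2 fold change of 1.20, and it was 1.12 when *PECAM1* and *CDH5* alone were the yardstick. *FLT1*, *KDR* and *TIE1* overlapped between the groups on this scale, with differences of 0.09, 0.29 and -0.24. With single pigs left out, that of *FLT1* ranged from -0.06 to 0.19 and that of *KDR* from -0.07 (without UCP1 KI replicate 2) to 0.72 (without UCP1 KI replicate 3), so neither kept its sign, and that of *TIE1* was -0.12 without WT replicate 1. *FLT4* was 0.65 lower relative to the markers in the UCP1 KI pigs, -4.90 against -4.25, and overlapped here, since UCP1 KI replicate 3 at -4.40 was above WT replicate 1 at -4.80. A pseudocount of 0.25 in place of 1, which weighs less on a gene at these low levels, gave -0.94 for *FLT4*.

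**Figure D3:**
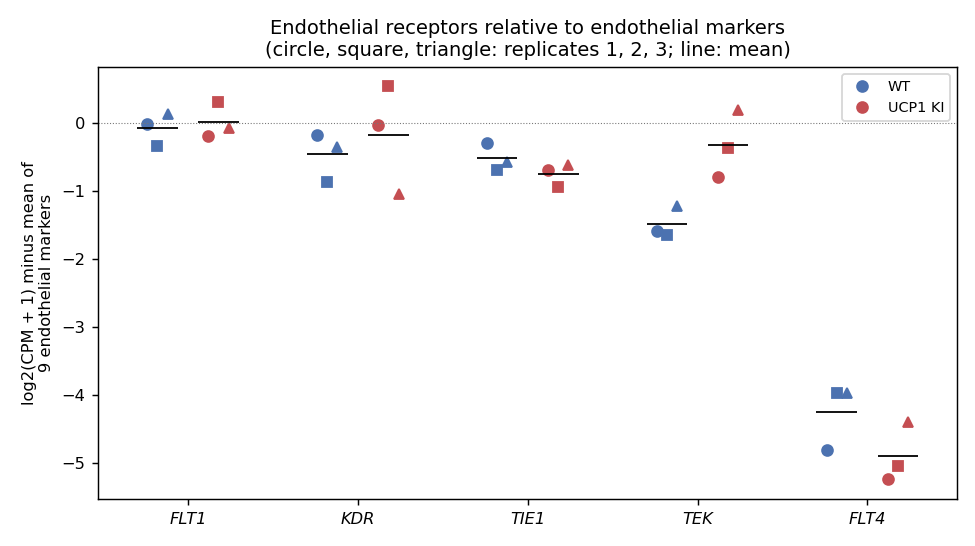
Log2(CPM + 1) of each endothelial receptor minus the mean of the 9 endothelial markers (y axis) in each WT pig (blue) and UCP1 KI pig (red), with lines at the group means. *TEK* is the receptor whose groups separate, at -1.49 in the WT pigs and -0.33 in the UCP1 KI pigs on average, and heights are not comparable between receptors because gene length was not corrected for.

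No lymphatic endothelial marker passed as lower in the reported fit. Of 7 listed genes 6 were tested, *FOXC2* being too low, and 5 of the 6 had a negative log2 fold change, none of them past the limits. The median of the 6 was -0.81 and moved to -1.29 when UCP1 KI replicate 2 was left out and to -0.50 when WT replicate 2 was. The lymphatic hyaluronan receptor *LYVE1* averaged 3.67 ± 2.48 CPM in the UCP1 KI pigs and 5.46 ± 4.32 CPM in the WT pigs, and *PROX1*, the transcription factor that defines these cells, 0.505 ± 0.279 and 0.728 ± 0.542 CPM (SD, n = 3 each). The chemokine *CCL21*, the matrix protein *RELN* and the multimerin *MMRN1* had log2 fold changes of -1.05, -1.38 and -1.61, with standard errors of 0.64, 0.82 and 0.84 and overlapping groups. When single pigs were left out they ranged from -2.09 to -0.72, from -1.92 to -0.27 and from -2.31 to -0.82. *CCL21* passed as lower without UCP1 KI replicate 2 and *MMRN1* without WT replicate 3, whereas *LYVE1* and *PROX1* changed sign. With the replicate number as a block, *CCL21* and *MMRN1* passed as lower with all 6 pigs, at -1.28 and -1.47. Counts were low, 5, 21 and 13 for *RELN* in the UCP1 KI pigs and 20, 55 and 10 in the WT pigs. *MMRN1* had 19, 43 and 9 counts against 71, 107 and 14, and *PROX1* had 7, 28 and 19 against 49, 10 and 14. In the reported fit the gene past both limits was *PDPN*, which is not confined to lymphatic vessels. It was higher in the UCP1 KI pigs, with a log2 fold change of 0.94 (standard error 0.35, adjusted p = 0.583 from edgeR). It was at 28.1, 47.1 and 26.1 CPM in the UCP1 KI pigs and at 25.0, 13.3 and 14.7 CPM in the WT pigs, and its call was lost without WT replicate 2 or 3 or UCP1 KI replicate 2. The summed level of the 7 markers was 30.9 to 62.1 CPM in the UCP1 KI pigs and 22.3 to 38.9 CPM in the WT pigs, a sum to which *PDPN* gave 26.1 to 47.1 CPM and 13.3 to 25.0 CPM, and none was at 0 in all pigs. The part of lymphatic cell number in the *FLT4* and *VEGFC* values was not tested.

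Markers of the cells around vessels included lower genes, and their counts below stand beside 4.34% lower and 3.84% higher over all genes tested. All 10 markers of pericytes and smooth muscle had a negative log2 fold change, with a median of -0.84 that was -0.48 without WT replicate 1. In the reported fit *ABCC9* and *NOTCH3* were past both limits as lower. *PDGFRB*, at -0.72 in that fit, passed as lower at -0.70 with the replicate number as a block. The summed level of the 10 markers was 374 to 521 CPM in the UCP1 KI pigs and 492 to 983 CPM in the WT pigs, and none was at 0 in all pigs. *NOTCH3*, the Notch receptor of mural cells, was at 10.2, 10.9 and 15.1 CPM in the UCP1 KI pigs and at 41.3, 16.0 and 16.2 CPM in the WT pigs. The log2 fold change, -1.02, was -0.43 without WT replicate 1, where the call was lost, as it was without UCP1 KI replicate 1 or 2. The call of *ABCC9*, a channel subunit of pericytes, held in 1 of the 6 fits that left out a pig. Of 7 fibroblast markers, 3 were lower, the collagen genes *COL1A1* and *COL3A1* and the proteoglycan *LUM*, and their calls held in 6, 5 and 1 of those fits. *COL1A1* was at 44.0, 29.4 and 35.8 CPM against 115, 180 and 101 CPM. The 7 markers summed to 237 to 386 CPM in the UCP1 KI pigs and 596 to 960 CPM in the WT pigs, and *COL1A1* and *COL3A1* made up most of the difference, with means of 36.4 and 138 CPM against 132 and 412 CPM. The median of the 7 was -0.39, moving to -0.65 when UCP1 KI replicate 2 was left out and to -0.67 when WT replicate 3 was, and *PDGFRA*, *PI16* and *FBLN1* had -0.08, -0.35 and 0.10. Mural cells and fibroblasts are known sources of ANGPT1 and VEGFC, and the part of these cells in the *VEGFC* value was not tested.

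Markers of other cells are given beside the same shares of all genes. Leukocyte markers had 2 higher genes of 7, *CD3E* and *ITGAM*, whose calls were both lost without UCP1 KI replicate 2, with a list median of 0.79 that was 0.03 without UCP1 KI replicate 2, and summed to 24.9 to 79.7 CPM in the UCP1 KI pigs and 24.3 to 43.7 CPM in the WT pigs. Of 6 tested adipocyte markers, *LIPE* was higher and the median was -0.96, or -0.05 without WT replicate 2, with summed levels of 84.0 to 252 CPM and 93.9 to 377 CPM. Red blood cell markers had 1 lower gene of 3, *HBM*, and summed to 11.6 to 76.2 CPM in the UCP1 KI pigs and 105 to 180 CPM in the WT pigs.

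Further ligands and partners of these receptors were tested as a list of 10 genes, of which 1 was past both limits, beside 8.19% of all genes tested. *SVEP1*, a large matrix protein that binds angiopoietins and is needed for lymphatic growth, was lower in the UCP1 KI pigs, at 9.35, 6.98 and 9.83 CPM against 14.6, 13.1 and 17.4 CPM in the WT pigs. In edgeR the log2 fold change was -0.78 (standard error 0.25), with an unadjusted p of 0.0159 and an adjusted p of 0.583, and the call was lost without UCP1 KI replicate 2 and with library size only. Again the groups were apart, as they were for 15.3% of all genes tested.

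*ANGPT2*, the context-dependent TEK ligand released by activated endothelium, was at 6.11, 9.59 and 1.85 CPM in the UCP1 KI pigs and at 4.27, 3.80 and 2.10 CPM in the WT pigs. It followed the pig order of *KDR* in the UCP1 KI group, but the group difference, 0.79 on the log2 scale (standard error 0.58, edgeR adjusted p = 0.728), did not pass except without UCP1 KI replicate 3. The ligands *PGF* and *VEGFD* had log2 fold changes of -0.15 and 0.21, and the co-receptors *NRP1* and *NRP2* had 0.64 and 0.18. *NRP1* was at 4.78 CPM in WT replicate 2 against 35.7 to 75.0 CPM in the other 5 pigs, and its log2 fold change ran from 0.12 to 1.53 over the fits that left out a pig. *PTPRB*, the endothelial phosphatase that restrains TEK, was at -0.20 on the log2 fold change scale. Of the genes that process VEGFC, *CCBE1*, *ADAMTS3* and *FURIN* had -0.25, 0.63 and 0.18. *ADAMTS3* had 84, 6 and 14 counts in the UCP1 KI pigs and 21, 35 and 7 in the WT pigs, and its value turned to -1.34 without UCP1 KI replicate 1. *VEGFD*, *NRP2*, *PTPRB* and *CCBE1* changed sign in such fits as well, with ranges of -0.21 to 0.53, -0.09 to 0.44, -0.43 to 0.11 and -0.58 to 0.06. The *FURIN* levels of the groups did not overlap, as for 15.3% of all genes tested, and its adjusted p from edgeR was 0.824.

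Downstream of the receptors, 39 of 40 listed signalling genes could be tested, and 3 were higher and 1 lower, beside 3.84% and 4.34% of all genes. *PIK3CA*, the catalytic subunit of the PI3-kinase that TEK and KDR activate, was at 17.8, 30.6 and 17.6 CPM in the UCP1 KI pigs and at 10.9, 6.43 and 8.51 CPM in the WT pigs. *FOXO1*, the transcription factor that TEK signalling restrains through AKT and which muscle fibres also express, was at 46.3, 68.0 and 85.6 CPM against 21.1, 27.8 and 38.4 CPM. The log2 fold changes of 1.35 and 1.20 (standard errors 0.33 and 0.33) held whichever pig was left out, and edgeR gave adjusted p values of 0.558 and 0.583. *NFATC2*, a calcium-dependent transcription factor, was lower at -1.74, and not past the limits without WT replicate 2. *SH2D2A*, an adaptor that binds KDR and is expressed in T cells, was higher at 2.66 and passed in 1 of the 6 fits that left out a pig. Its counts were low, 41, 65 and 10 in the UCP1 KI pigs and 11, 6 and 0 in the WT pigs, and the groups overlapped in CPM.

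Upstream of *VEGFA*, none of the 5 regulators tested was past both limits with all 6 pigs. *HIF1A* and *EPAS1*, the oxygen-regulated factors, had log2 fold changes of -0.31 and -0.01, and *PPARGC1A* and *ESRRA*, which raise *VEGFA* in exercised muscle, had -0.35 and 0.62. *PPARGC1A* ranged from -1.11, past both limits, without UCP1 KI replicate 1 to 0.13, *ESRRA* from 0.37 to 1.04, past both limits, without WT replicate 3, and *HIF1A* from -0.57 to -0.07, and *EPAS1* changed sign. Of 7 tested HIF targets, *ANKRD37* and *KDM3A* were lower, at -0.68 and -0.60, while the median of the list was 0.27, or 0.12 without UCP1 KI replicate 1 or WT replicate 3, and each call held in 2 of the 6 fits that left out a pig. Among 9 tested genes of sprouting tip and stalk cells, none passed in the reported fit. With the replicate number as a block, *APLN* passed as lower with all 6 pigs. The Notch ligand *DLL4* was at -0.43 in the reported fit, with a range of -0.67 to -0.21 over single pigs left out. *NOTCH4* and *HEY2* were at -0.63 and -1.02 and, with *DLL4*, passed as lower without WT replicate 3. The tip cell genes *ESM1* and *CXCR4* were at 0.90 and 0.58, and *CXCR4* passed as higher without WT replicate 1. The list median was -0.39, or 0.14 without WT replicate 1. Over these lists together, 7 of 70 tested genes were past both limits, 3 higher and 4 lower, beside 8.19% of all genes.

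**Figure D4:**
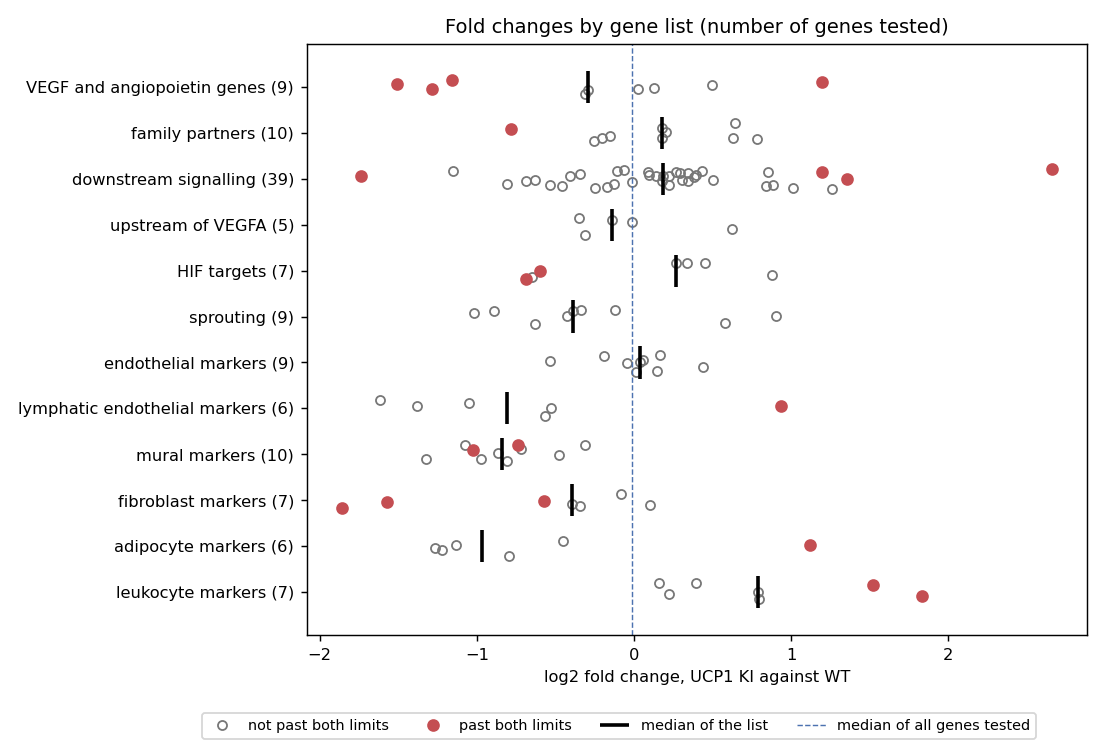
Log2 fold change (x axis) of every tested gene in the VEGF and angiopoietin list, the pathway lists and 6 cell type marker lists, red where past both limits, with a black bar at each list median and a dashed line at the median of all genes tested. Endothelial markers lie around 0, whereas all 10 mural markers and 5 of 6 lymphatic markers lie below 0.

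Across the 6 pigs, the genes of these lists nearest in profile to *FLT4* were *ANKRD37*, *ANGPT4* and *LUM*, with root mean square differences of 0.12, 0.16 and 0.18 between centred log2(CPM + 1) values, where the median over 130 genes was 0.56. *ANGPT4* was nearest to *FLT4*, at 0.16, and *VEGFC* to *ANKRD37*, *FLT4* and *SVEP1*, at 0.33, 0.35 and 0.36 beside a median of 0.75. *KDR* was nearest to *ENG*, *ANGPT2* and the heat shock gene *HSPB1*, at 0.27, 0.28 and 0.38 beside a median of 0.80. Low genes have flatter profiles on this scale, so smaller values are reached more easily by *FLT4* and *ANGPT4*. Profiles were centred over all 6 pigs, so the group difference stays in them. Genes called lower in the UCP1 KI pigs are drawn together by it, and likeness within the groups was not tested.

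**Figure D5:**
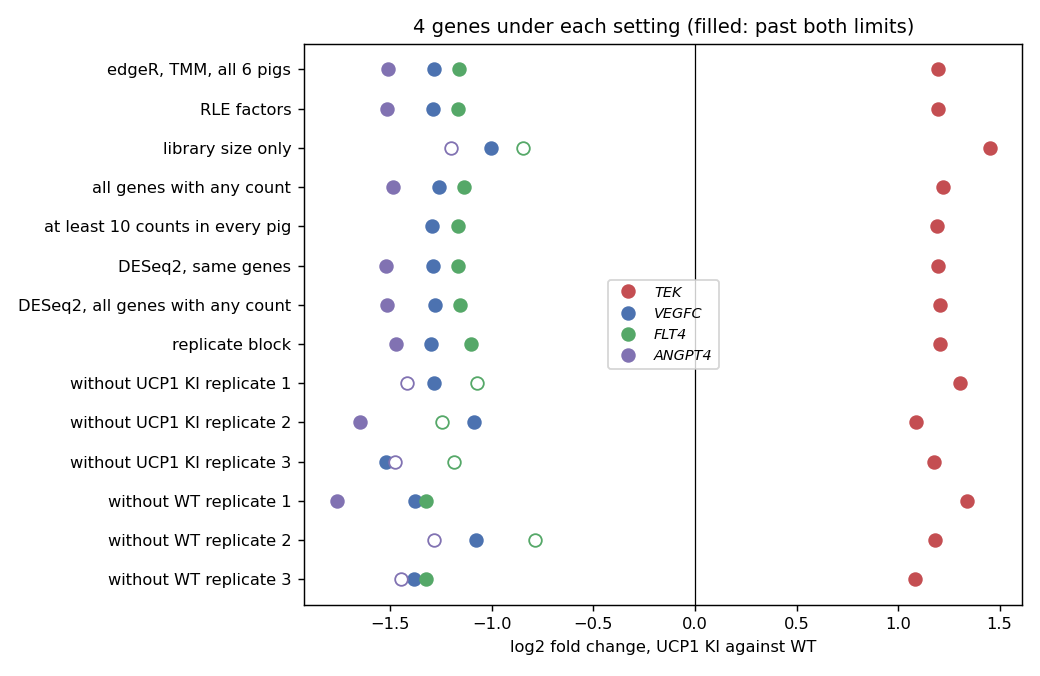
Log2 fold change (x axis) of *TEK*, *VEGFC*, *FLT4* and *ANGPT4* under the reported setting and each alternative (rows), filled where past both limits. *TEK* and *VEGFC* are filled in every row, *FLT4* and *ANGPT4* lose their call in several, and *ANGPT4* has no value where at least 10 counts were required in every pig.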

How the data were processed

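RNA-seq of longissimus dorsi from 3 UCP1 KI and 3 WT pigs was analysed. The authors trimmed paired-end reads with Trimmomatic 0.36 and mapped them with HISAT2 2.0, with Sscrofa11.1 named in the submitters' processing notes. Raw read counts per Ensembl gene, not normalized, were deposited with a column for each pig, and 0 columns of per-pig values stayed unused. The authors named StringTie 1.3.3b for expression values of transcripts. Whether it made the deposited counts is not given in the sources used here, and neither is the annotation release.

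Counts were fitted over all genes in R 4.3.3 with edgeR 4.0.16 (filterByExpr with a minimum count of 10, TMM factors, quasi-likelihood F test, two-sided, genotype as the single term), with Benjamini-Hochberg adjustment over the 13402 genes tested. The limits of p and fold change are those of the study's methods, which do not say whether p was adjusted. Standard errors are the absolute log2 fold change divided by the square root of F. CPM used TMM-scaled totals and a pseudocount of 1 on the log2 scale. Gene symbols were matched by Ensembl identifier, for 14864 identifiers, and 134 of 154 listed symbols had counts. Gene spans came from RefSeq on Sscrofa11.1 and may differ from the Ensembl models used in counting. Intervals cover counting error only.

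The 9 genes with counts were described, with every partner ligand or receptor listed and, from the other lists, each gene past both limits. Members and lists were chosen with earlier results of these data known. Alternatives were DESeq2 1.42.0, median-of-ratios (RLE) factors, library size only, other filters, the replicate number as a block, another pseudocount, other marker sets and each pig left out. The fits were tested on simulated data.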

Additional observations from a re-analysis of the deposited data

How the results depend on the processing

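Across all alternatives and pigs left out, *TEK*, *VEGFC*, *FLT4*, *ANGPT4* and *VEGFA* kept their direction where tested, and *TEK* and *VEGFC* stayed past both limits in all 13 of them. The number of the 9 genes past both limits, 4 in the reported fit, was 2 with library size only and between 2 and 4 with each pig left out. With library size only the log2 fold change of the median gene shifted by 0.25 and 82.7% of the genes past both limits were higher, in place of 46.9%, and *FLT4* at -0.85 and *ANGPT4* at -1.20 missed the p limit. All genes past both limits numbered 1097, and between 678 (without UCP1 KI replicate 2) and 1541 with each pig left out, with 718 without WT replicate 2. Several of the genes without a call changed sign, and the cause was not tested. *ANGPT1* was -0.24 with the replicate block, and with pigs left out it lay between -0.57 and 0.44, *FLT1* between -0.18 and 0.36, *KDR* between -0.00318 and 0.91 and *TIE1* between -0.53 and 0.0607. The values without the single pig were -0.57 and -0.07 for *ANGPT1*, -0.18 and -0.02 for *FLT1* and 0.0607 for *TIE1*. Replicate numbers are shared between the groups, but same-numbered pigs had correlations of 0.00, 0.09 and 0.28 between their deviations from the group means, so the numbers were not taken to pair the pigs. With the replicate block 1114 genes were past both limits, and the calls of the 9 genes did not change. Calls of other listed genes did change with the block. *ANKRD37* lost its call, *CCL21*, *MMRN1*, *APLN* and *PDGFRB*, among others, gained one as lower, and *PIK3R1* and *AKT2* gained one as higher. *ANGPT4* could not be tested with at least 10 counts in every pig. *ANGPT4* and *FLT4* had 9 to 83 counts per pig, and the part of depth in their lost calls was not tested. The p values of edgeR and DESeq2 set the difference between 3 and 3 pigs against a variance estimated with information shared across genes.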
